A study of Mus musculus with 8 samples.

Results

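Levels of 6 genes that encode inhibitors of cyclin-dependent kinases (CDKs) were followed across GFP-positive cells of the embryonic mouse kidney: Cdkn1b, Cdkn1c, Cdkn2a, Cdkn2b, Cdkn2c and Cdkn2d, which are the family without Cdkn1a. They were found by the gene name that the array files give to a probe, and the family was chosen by earlier measured values of these arrays, above all the null against control level of Cdkn2b. These 6 of 27300 named genes had 9 of the 39429 probes present on both array designs. Cdkn1b, Cdkn2a and Cdkn2b had 2 probes each and the other members 1. RNA of cells sorted by GFP from kidney rudiments of NMRI mouse embryos at stage E11.5 was hybridised to 8 arrays, with male and female cells pooled to about 100000 for each array. The 3 control pools had the genotype Tbx18(GFP/+), with a GFP allele at 1 copy of Tbx18, and the 3 Tbx18 null pools had the genotype Tbx18(GFP/GFP). The 2 Tbx18VP16 pools had the genotype Tbx18(cre/+);Hprt(Tbx18VP16), in which a fusion of Tbx18 to the viral activation domain VP16 and a GFP stand under a CAG promoter at the Hprt locus. All 8 pools therefore carried at least 1 targeted copy of Tbx18. The control and null cells were collected by a GFP at the Tbx18 locus and the Tbx18VP16 cells by a GFP at Hprt in embryos with a Cre at the Tbx18 locus, so the collected cells need not be the same. The comparisons ask which transcripts change when this T-box transcription factor is lost, and which when its fusion to an activation domain is added.

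Cyclin-dependent kinases drive the cell through its division cycle, and their inhibitors slow or stop it. The products of Cdkn1b (p27) and Cdkn1c (p57) belong to the Cip/Kip family, which binds complexes of cyclins with several kinases, while those of Cdkn2a (p16), Cdkn2b (p15), Cdkn2c (p18) and Cdkn2d (p19) belong to the INK4 family, which binds the kinases of the D-type cyclins and thereby keeps the retinoblastoma proteins active. Cdkn2a and Cdkn2b lie side by side, and Cdkn2a also encodes ARF, an inhibitor of Mdm2, from a separate first exon.

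The locus that the results turn on is that of Cdkn2b and Cdkn2a on chromosome 4. The 250 bases before each annotated start are shown, 5′ to 3′ on the minus strand, from RefSeq with the build GRCm38.p6, because Cdkn2b was well above background in some groups only, while the probes of its neighbour Cdkn2a were so on 1 array each. Capitals mark each CG dinucleotide, the site of DNA methylation. Cdkn2b was at chr4:89311033-89311282, the upstream start of Cdkn2a at chr4:89294620-89294869 and its downstream start at chr4:89282193-89282442.
Cdkn2b: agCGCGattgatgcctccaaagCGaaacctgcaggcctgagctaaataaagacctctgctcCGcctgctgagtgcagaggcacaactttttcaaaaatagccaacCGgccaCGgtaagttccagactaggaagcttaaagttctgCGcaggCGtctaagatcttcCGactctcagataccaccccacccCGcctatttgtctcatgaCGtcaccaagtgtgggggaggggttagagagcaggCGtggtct
Cdkn2a, upstream start: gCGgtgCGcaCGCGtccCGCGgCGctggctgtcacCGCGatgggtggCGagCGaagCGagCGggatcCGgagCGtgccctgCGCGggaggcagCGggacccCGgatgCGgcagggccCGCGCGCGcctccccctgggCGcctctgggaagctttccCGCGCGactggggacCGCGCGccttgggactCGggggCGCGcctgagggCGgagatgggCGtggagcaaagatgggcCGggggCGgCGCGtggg
Cdkn2a, downstream start: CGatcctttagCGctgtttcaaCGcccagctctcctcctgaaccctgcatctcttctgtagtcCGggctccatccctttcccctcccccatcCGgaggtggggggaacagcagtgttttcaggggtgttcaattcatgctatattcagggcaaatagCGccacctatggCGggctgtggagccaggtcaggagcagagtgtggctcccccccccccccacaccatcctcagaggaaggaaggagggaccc
The Cdkn2b window held 12 CG dinucleotides, the upstream Cdkn2a window 40 and the downstream one 7, against a median of 6 over 32851 such windows. The T-box core letters GGTGTGA, searched on both strands, stood in 0 of the 7 windows of the 5 members that the RefSeq table held (Cdkn1b, Cdkn2a, Cdkn2b, Cdkn2c and Cdkn2d). They stood in 3.33% of all 32851 windows of the same length. That says only that these letters were not in these windows.

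A level is given as log2 of a probe's signal over the 75th percentile of its array, so that 0 is the signal at that percentile, and levels are compared only within a probe. Between 60.1% and 66.0% of probes were well above background by the scanner software, and the lowest level that counted as such was between -6.86 and -5.99 on the 8 arrays. The number of arrays limits the precision of every comparison. As a check of the labels, Tbx18 stood at -0.02, 1.20 and 1.04 in the controls, at -2.40, -1.34 and -2.35 in the nulls and at 1.34 and 1.06 in Tbx18VP16. Its difference of -2.77 ± 0.435 in null against control did not pass (limma adjusted p = 0.11, or 0.03 with the replicate number as a block). The main fit of null against control thus did not call the targeted gene itself. Whether the Tbx18 probe lies in the part that the GFP allele removes, or also reads the fusion, is not stated in the labels. All 10 markers of ureteric mesenchyme listed, Tbx18 among them, were well above background on every array. Their summed level (signal over the 75th percentile, added) was 199, 156 and 141 in controls 1 to 3, 183, 127 and 117 in nulls 1 to 3, and 118 and 126 in Tbx18VP16. On this scale it was lower in null in every pair and in Tbx18VP16 than in every control. The markers did not move together: 3 were higher and 7 lower in null than in control, and 4 higher and 6 lower in Tbx18VP16. Their median differences from control were -0.54 and -0.12, beside 0.00 and -0.13 for all genes. The part of these markers in the values of the inhibitor genes was not tested. Pool 3 of control and null was labelled from 10 ng of RNA in place of 20 ng and lay on another slide than pools 1 and 2. The Tbx18VP16 arrays had an array design and a slide of their own, so genotype, design and slide cannot be told apart in their comparisons. Because whole pools were measured, fewer cells of a type and less RNA per cell cannot be told apart.

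Cdkn2b was the member with the clearest differences: it was not well above background on any control array and well above background on all 5 others. At its brighter probe (A_55_P1988183, mm9 chr4:88952276-88952335, minus strand) the levels were -7.75, -8.14 and -8.37 in controls 1 to 3. They were -3.76, -3.91 and -5.15 in nulls 1 to 3. In Tbx18VP16 pools 1 and 2 they were -3.09 and -3.86. Every null and Tbx18VP16 array stood above every control array, and the null and Tbx18VP16 arrays overlapped. Since the control signal is only a bound, the null mean was at least 4.47-fold and the Tbx18VP16 mean at least 7.78-fold higher than the control mean, with each control array set no lower than its lowest signal well above background.

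The null difference of Cdkn2b was among the values through which these genes were chosen, so its values are a description, and no call that includes it is read as support. Null minus control was 3.99, 4.23 and 3.22 on the log2 scale in pools of the same number, and the group means differed by 3.81. The third pair, with the smaller RNA input, showed the smallest difference. The probe passed the filter on low signals in this comparison only through the null arrays. The second probe (A_55_P1979526, mm9 chr4:88952720-88952779), 384 bases away, was dimmer and ordered the groups in the same way. Its levels were -7.41, -8.21 and -8.23 in the controls, -4.96, -4.90 and -6.61 in the nulls, and -4.67 and -5.92 in Tbx18VP16. It was well above background on 0 of 3 control, 2 of 3 null and 1 of 2 Tbx18VP16 arrays. With the control arrays set as for the brighter probe, the null mean was 1.93-fold and the Tbx18VP16 mean 2.20-fold higher. These are not strict bounds, since both means include an array that was not well above background.

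**Figure D1:**
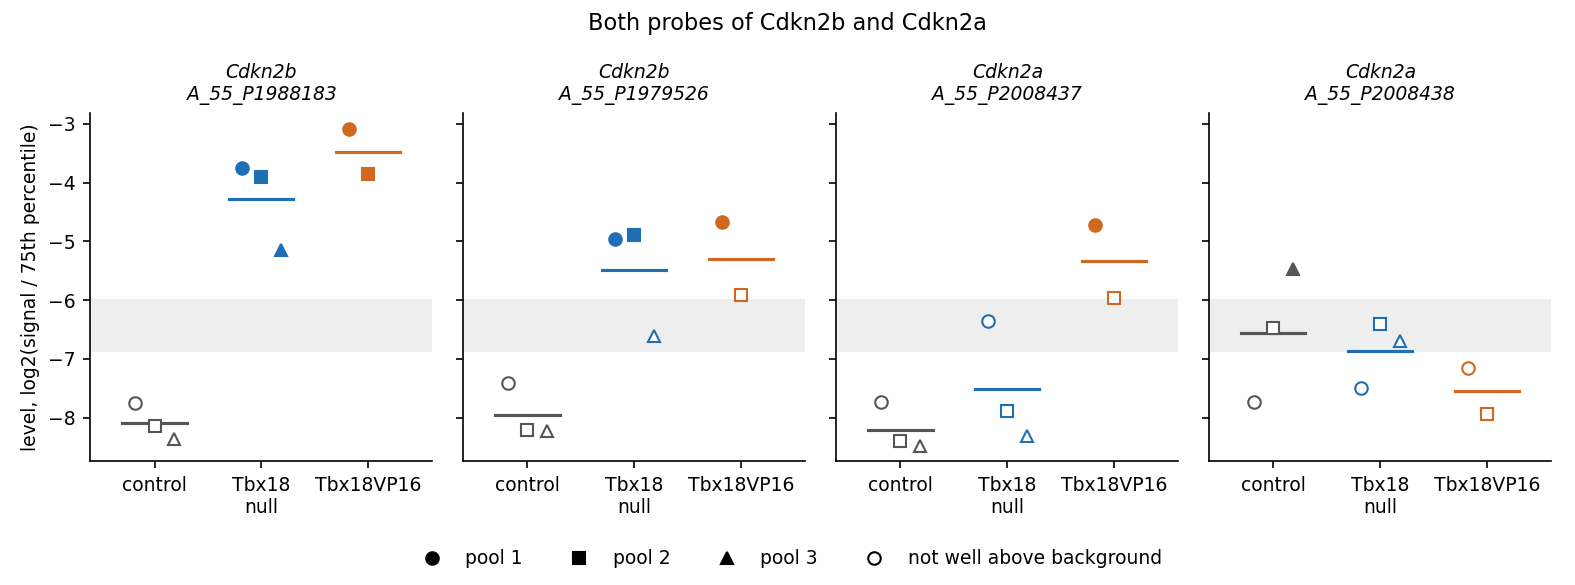
Level (log2 of signal over the array's 75th percentile) of both probes of Cdkn2b and both probes of Cdkn2a on each array, by group. Points are arrays, shapes give the pool number, open points were not well above background, bars are group means and the grey band spans the lowest levels well above background (-6.86 to -5.99). Cdkn2b sits below the band in all 3 controls at both probes, while each Cdkn2a probe was well above background on 1 array, and not the same one.

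The comparison of Cdkn2b in Tbx18VP16 with control rests on the same 3 control arrays as the null comparison, so it too is a description, without a test. The difference of measured means was 4.61 on the log2 scale, or 2.66 at the second probe. Its control side is below background, so the bound of the brighter probe is what the arrays give. The difference at the brighter probe lay between 4.23 and 5 with each of the 5 arrays left out in turn. After normexp background correction with an offset of 50, which by construction narrows differences between dim signals, it was 1.32. Against null, the Tbx18VP16 mean differed by 0.80, and the arrays of these groups overlapped. This rests on the null levels that took part in the choice of the genes, so it too is a description, without a test.

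Cdkn2a, whose probes lie 31.7 kb from those of Cdkn2b, did not pass the filter on low signals at either probe and was not tested. At A_55_P2008438 (mm9 chr4:88920543-88920602) its levels were -7.73, -6.47 and -5.47 in controls, -7.50, -6.41 and -6.70 in nulls, and -7.16 and -7.95 in Tbx18VP16. There, 1 array, control 3, was well above background. At A_55_P2008437 (mm9 chr4:88920405-88920464), 78 bases away, the levels were -7.74, -8.39 and -8.48 in controls, -6.36, -7.88 and -8.32 in nulls, and -4.72 and -5.96 in Tbx18VP16. Here the Tbx18VP16 arrays were the highest, and the first of them was well above background with 4 of 4 spots while the second was with 1 of 4. With control and null arrays set no lower than their lowest signal well above background, the Tbx18VP16 mean was 2.13-fold above control and 2.33-fold above null. These are not strict bounds, since that mean includes the second Tbx18VP16 array, which was not well above background. The probes disagreed: the one that was highest in Tbx18VP16 has a neighbour at which the Tbx18VP16 arrays were among the lowest. Both were designed on the same transcript, and which of p16 and ARF they read was not worked out.

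Cdkn2c, an INK4 inhibitor found in many tissues, was dim in every group (A_55_P2074796, mm9 chr4:109333508-109333567, minus strand). Its levels were -7.01, -5.55 and -5.51 in controls, -7.53, -5.72 and -5.36 in nulls, and -4.71 and -4.40 in Tbx18VP16. It was well above background on 2 of 3 control, 2 of 3 null and both Tbx18VP16 arrays, and the dim array was pool 1 in both other groups. Null differed from control by -0.18 ± 0.655 (95% interval -1.72 to 1.36, limma adjusted p = 1). Tbx18VP16 stood above every array of both other groups, by 1.47 ± 0.688 against control (95% interval -0.117 to 3.05, limma adjusted p = 0.257) and by 1.64 ± 0.688 against null (95% interval 0.0594 to 3.23, limma adjusted p = 0.22). Neither difference passed. Without control 1 the first was 0.97 and without null 1 the second was 0.98, and with normexp they were 0.24 and 0.21.

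Cdkn2d, whose product is known for keeping postmitotic neurons out of the cycle, was well above background on all 8 arrays (A_55_P2022251, mm9 chr9:21092934-21092993, minus strand). The levels were 2.32, 1.75 and 2.21 in controls, 2.06, 1.52 and 1.37 in nulls, and 1.84 and 2.17 in Tbx18VP16. All groups overlapped, although null was below control in all 3 same-numbered pairs, by -0.26, -0.23 and -0.83. The group difference of -0.44 ± 0.288 did not pass (95% interval -1.12 to 0.238, limma adjusted p = 1). With the replicate number as a block, which uses these pairs, its SE was 0.17 and it did not pass either (limma adjusted p = 0.353). Tbx18VP16 differed from control by -0.09 ± 0.300 (95% interval -0.779 to 0.601, limma adjusted p = 0.886) and from null by 0.35 ± 0.300 (95% interval -0.339 to 1.04, limma adjusted p = 0.527).

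**Figure D2:**
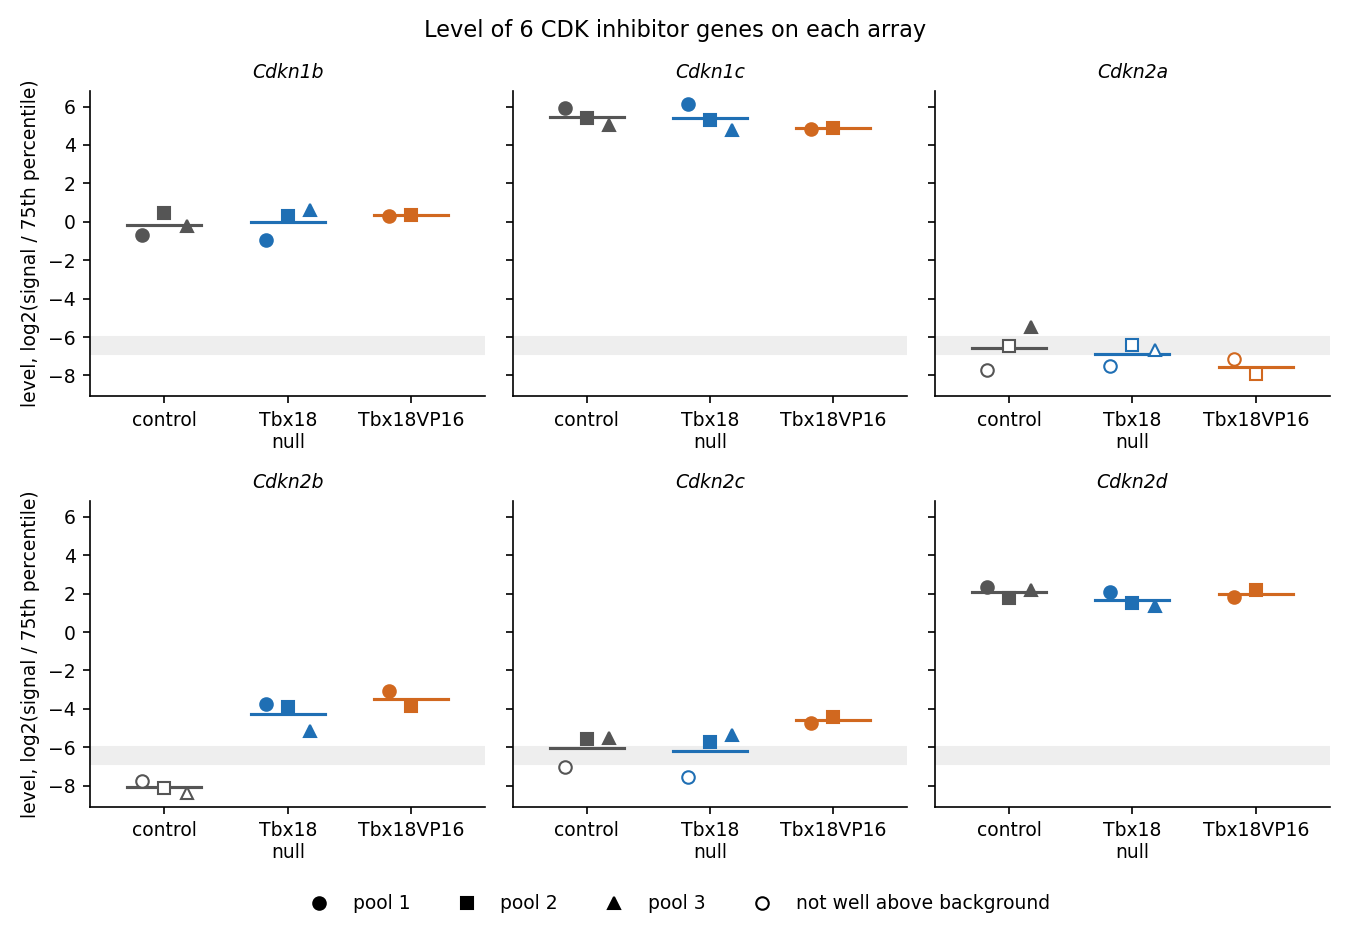
Level (log2 of signal over the array's 75th percentile) of the 6 genes on each array, with the brighter probe of each gene. Points are arrays, shapes give the pool number, open points were not well above background, bars are group means and the grey band spans the lowest levels well above background. Cdkn2b leaves the background in the null and Tbx18VP16 groups, and pool 1 of control and null stands low together for Cdkn1b and Cdkn2c and high together for Cdkn1c.

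In the Cip/Kip family, Cdkn1c, an imprinted inhibitor that restrains growth of the embryo, was bright on every array (A_51_P339540, mm9 chr7:150644753-150644812, minus strand). Its levels were 5.94, 5.39 and 5.02 in controls, 6.11, 5.28 and 4.77 in nulls, and 4.81 and 4.90 in Tbx18VP16. On this scale the Tbx18VP16 arrays lay below every control array and inside the null range. Before scaling, the signals were 59774, 56726 and 57177 in controls and 59686 and 63575 in Tbx18VP16, so these groups overlapped. The null difference was -0.06 ± 0.407 (95% interval -1.02 to 0.894, limma adjusted p = 1). The Tbx18VP16 differences of -0.59 ± 0.420 against control (95% interval -1.56 to 0.374, limma adjusted p = 0.445) and -0.53 ± 0.420 against null (95% interval -1.50 to 0.436, limma adjusted p = 0.493) did not pass. With the percentile taken over all spots, the difference from control was -0.13.

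Cdkn1b, whose protein level is set largely by its breakdown, was read well by 1 of its probes (A_55_P2026562, mm9 chr6:134875424-134875483, plus strand). There the levels were -0.67, 0.45 and -0.23 in controls, -0.96, 0.32 and 0.60 in nulls, and 0.31 and 0.37 in Tbx18VP16. All groups overlapped, and the lowest arrays were control 1 and null 1. The differences were 0.14 ± 0.479 for null against control (95% interval -0.989 to 1.26, limma adjusted p = 1), 0.49 ± 0.497 for Tbx18VP16 against control (95% interval -0.656 to 1.63, limma adjusted p = 0.6) and 0.35 ± 0.497 against null (95% interval -0.793 to 1.49, limma adjusted p = 0.717). The other Cdkn1b probe (A_52_P673863, mm9 chr6:134873606-134873665) was well above background on 0 of 8 arrays and has only a bound.

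**Figure D3:**
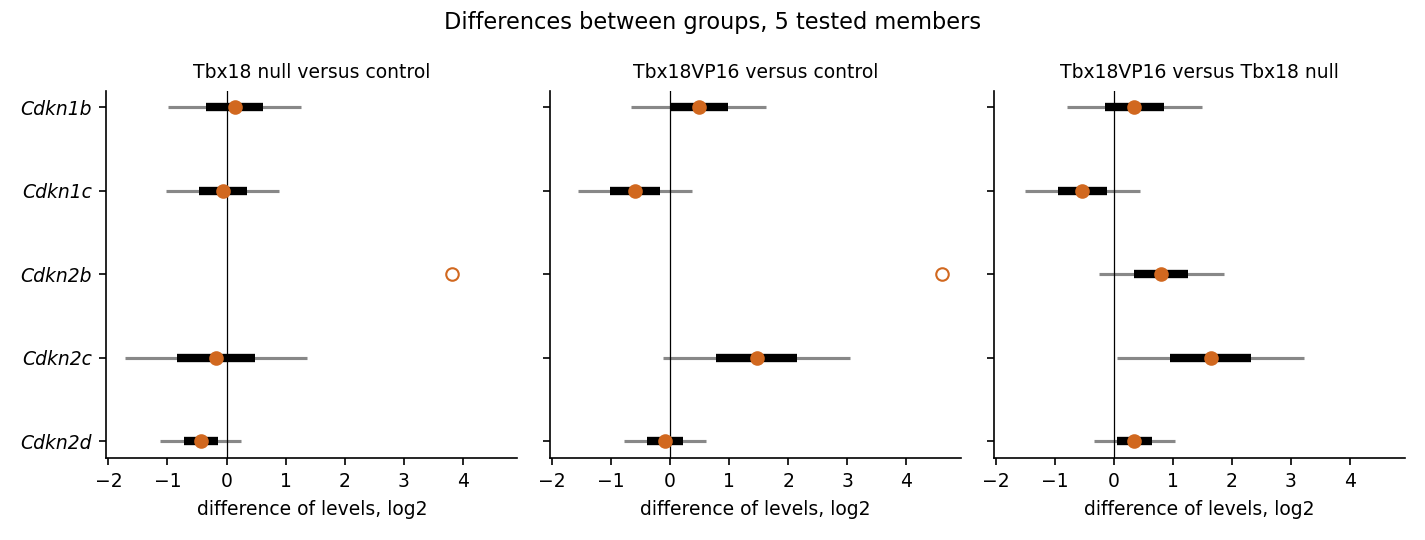
Difference of mean levels (log2) for the 5 tested genes in null against control, Tbx18VP16 against control and Tbx18VP16 against null. Dots are differences, thick bars ± 1 standard error and thin bars 95% intervals of the limma fits. The open dots of Cdkn2b against control, at 3.81 and 4.61, have no bars. Its control arrays were below background and its null level chose the genes. The bars of Cdkn2b in Tbx18VP16 against null rest on that same null level and are not read as a test. The interval of Cdkn2c against null begins just above 0.

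Counted together, 0 of 5 tested members passed the threshold of 0.05 in null against control with limma, where 0 of 18332 genes (0%) passed and 942 had an unadjusted p under that value. With the replicate number as a block, which is given because the numbers paired control and null pools, 1 member (Cdkn2b) passed, higher, where 202 genes passed (1.1%, or 0.567% higher). The control and null levels of Cdkn2b took part in the choice of these genes. Nothing is therefore read from these counts, nor from the result of Cdkn2b in Tbx18VP16 against control or against null. The null and control groups did not overlap for 1 member, Cdkn2b, higher, against 8.12% of all genes tested (4.35% higher). In Tbx18VP16 against control, 1 of 5 members, Cdkn2b, passed, higher, against 5.31% of 19132 genes in either direction and 2.14% higher. There, 4267 genes had an unadjusted p under 0.05. For 3 members (Cdkn2b and Cdkn2c higher, Cdkn1c lower) these groups did not overlap, where 47.3% of all genes did not (18% higher and 29.2% lower). In Tbx18VP16 against null 0 of 5 passed with limma, where 3.32% of 19132 genes did and 4087 genes, 1 member among them, had an unadjusted p under 0.05. Those groups did not overlap for 1 member, Cdkn2c, higher, against 47.3% of genes (16.7% higher).

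The scaling bears on the Tbx18VP16 values. The median difference of all genes from control was -0.13, with 409 calls higher and 606 lower, but 0.34 with the percentile taken over all spots, with 1157 higher and 238 lower. Quantile normalisation gave 523 higher and 540 lower, and the authors' deposited values 535 and 492. The scaling over all spots thus adds 0.46 to every Tbx18VP16 difference from control. Measured against the median of all genes, the differences were 4.74 for Cdkn2b, 1.59 for Cdkn2c, 0.61 for Cdkn1b, 0.04 for Cdkn2d and -0.47 for Cdkn1c. The sign for Cdkn2d against control turned with the scaling, from -0.09 to 0.37.

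The spread within groups was not the same for all members. Spots of a probe on 1 array varied little for the bright genes, with an SD of 0.013 to 0.066 for Cdkn1c, 0.031 to 0.069 for Cdkn1b and 0.021 to 0.085 for Cdkn2d, on the log2 scale. For the brighter Cdkn2b probe that SD was 0.052 to 0.36, for its second probe 0.12 to 0.52 and for Cdkn2c 0.047 to 0.63. Between pools of 1 group the SD for Cdkn1b was larger among the 3 controls, at 0.56, and the 3 nulls, at 0.83. Between the 2 Tbx18VP16 pools it was 0.044, inside the range of its spots. For Cdkn1c the SDs between pools were 0.46, 0.68 and 0.063 in the same order. For the brighter Cdkn2b probe they were 0.31, 0.77 and 0.55, the first inside the range of its spots. Much of the pool spread of Cdkn1b, Cdkn2c and Cdkn1c was shared by control and null. Pool 1 was the lowest of both groups for Cdkn1b and Cdkn2c and the highest of both for Cdkn1c. The nulls and controls of the same number thus stayed within 0.26 of each other for Cdkn1c in all pairs, with differences of 0.17, -0.11 and -0.25. The SEs given above for null against control leave this pairing out. With the replicate number as a block they were 0.139 for Cdkn1c, 0.169 for Cdkn2c, 0.17 for Cdkn2d and 0.255 for Cdkn1b. None of these genes passed with the block (limma adjusted p 0.353 to 0.896).

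The genes with the most similar course over the 8 arrays were taken by the mean absolute difference between levels, each centred on its own mean. For Cdkn2b they were Grp at 0.542, Lhx3 at 0.59 and Rspo1 at 0.61, against a median of 1.96 over all genes. Lhx3, a LIM homeobox gene, stood at -5.93, -6.04 and -6.53 in controls, -3.41, -3.68 and -3.94 in nulls, and -2.32 and -2.33 in Tbx18VP16, and it was well above background on 1 of 3 control arrays and on all others. For Cdkn2c the nearest gene was Parp12 at 0.148 (median 0.938), for Cdkn1b Yeats4 at 0.09 (0.633), for Cdkn1c Tm4sf19 at 0.0767 (0.447) and for Cdkn2d Fbxl7 at 0.0586 (0.399). Tm4sf19 was well above background on 0 of 2 Tbx18VP16 arrays, and Parp12 on 2 of 3 control and 2 of 3 null arrays. These are descriptions over 8 arrays that share pools and slides.

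Cdkn1a (p21), the remaining Cip/Kip gene, is given for reference. At its brightest probe (A_51_P363947) the levels were -5.96, -4.18 and -4.68 in controls, -4.12, -2.32 and -1.91 in nulls, and -1.61 and -1.44 in Tbx18VP16. There it rose in Tbx18VP16 against control by 3.42 ± 0.705 (limma adjusted p = 0.0339). Null differed from control by 2.16 ± 0.673 (limma adjusted p = 0.593, or 0.04 with the replicate block). At another probe (A_55_P1986282) the means were -6.50 in control, -6.14 in null and -4.38 in Tbx18VP16. That probe was well above background on 0 of 3 control, 1 of 3 null and 2 of 2 Tbx18VP16 arrays. A further probe (A_55_P1976204) was well above background on 0 of 8 arrays. A fit without a Tbx18VP16 array leaves 1 in that group, which is then assumed to vary like the others. The Tbx18VP16 call was lost without any single control or Tbx18VP16 array (limma adjusted p 0.0584 to 0.268).

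Of 9 tested kinase and cyclin genes that the inhibitors act on, 0 passed with limma in each of the 3 comparisons (1, 2 and 1 had an unadjusted p under 0.05), and their median difference was 0.03 in null and -0.02 in Tbx18VP16 against control, beside 0.00 and -0.13 for all genes. Ccnd1, a D-type cyclin and partner of the INK4 targets, differed by -1.45 ± 0.351 in Tbx18VP16 (limma adjusted p = 0.0551) and by -0.22 ± 0.343 in null (limma adjusted p = 1). With quantile normalisation the Tbx18VP16 difference of Ccnd1 was -1.35 and passed (limma adjusted p = 0.0274), while with the all-spots percentile it was -0.99 (limma adjusted p = 0.111). Ccnd2, another D-type cyclin, differed by 0.95 ± 0.292 in Tbx18VP16 (limma adjusted p = 0.108, or 0.0287 with the all-spots percentile) and by 0.87 ± 0.279 in null (limma adjusted p = 0.626, or 0.055 with the replicate block). Of the 11 retinoblastoma and E2F genes downstream, 0 passed in each comparison (0, 1 and 0 at the unadjusted p), with medians of 0.04 in null and 0.31 in Tbx18VP16 against control. Rbl1, a retinoblastoma relative, had the smallest p in Tbx18VP16 against control with -0.60 ± 0.253 (limma adjusted p = 0.212). Of the 6 genes for breakdown of p27, such as Skp2 and Cks1b, 0 passed in each comparison (0 at the unadjusted p).

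Among 17 tested regulators of the Cdkn2a and Cdkn2b locus, 0 passed in null against control (0 at the unadjusted p) and 1, lower, in each Tbx18VP16 comparison, against 5.31% and 3.32% of all genes called in either direction. That gene was Cbx7, a Polycomb protein known to repress this locus, which fell by 1.89 on the log2 scale against control (SE 0.358, limma adjusted p = 0.0255) and by 1.86 against null (SE 0.358, limma adjusted p = 0.0363). It was well above background on 1 of 2 Tbx18VP16 arrays and on all others. Both calls were lost without either Tbx18VP16 array (limma adjusted p 0.181 to 0.317), and also without control 2 (0.0812) against control and without null 2 (0.0871) or null 3 (0.0531) against null. They were also lost with the all-spots percentile (limma adjusted p 0.0511 and 0.0607), with normexp (0.0969 and 0.0966) and, against null, with only those groups in the fit (0.0509). Bmi1, another Polycomb repressor of the locus, differed by 0.82 ± 0.238 in Tbx18VP16 against control (limma adjusted p = 0.093, or 0.0204 with the all-spots percentile). Ets2, known as an activator of Cdkn2a, differed by 0.91 ± 0.239 there (limma adjusted p = 0.0707, or 0.0169 with the all-spots percentile). The T-box repressor genes Tbx2 and Tbx3 differed by -0.26 ± 0.254 and 0.42 ± 0.221 in null (limma adjusted p = 1 for both). The list's median was 0.06 in null and 0.24 in Tbx18VP16 against control.

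Of 6 tested genes of the branch from ARF to p53, 2 rose in Tbx18VP16 against control: Cdkn1a, given above, and Ccng1, a p53 target, by 1.32 ± 0.225 (limma adjusted p = 0.0176), where 5.31% of all genes were called in either direction. Ccng1 also rose against null by 1.32 ± 0.225 (limma adjusted p = 0.0255). These calls of Ccng1 were lost without either Tbx18VP16 array (limma adjusted p 0.173 to 0.252), without control 2 (0.0612) or null 2 (0.0826), and against null with only those groups in the fit (0.0622). The list's median was 0.63 against control, and 0 of the 6 passed in null with limma (1, Cdkn1a, at the unadjusted p). Of the neighbours of Cdkn2a and Cdkn2b, Mtap, an enzyme of methionine salvage, differed by 0.06 ± 0.222 in null (limma adjusted p = 1) and by 0.40 ± 0.222 in Tbx18VP16 against control (limma adjusted p = 0.337). Dmrta1 was well above background on 2 of 3 control arrays and 0 of the 5 others. It passed the filter only through the controls and has only a bound elsewhere, so its means of -6.03 in control, -7.92 in null and -7.94 in Tbx18VP16 are given without a test. Near Cdkn1c, 0 of 6 tested genes passed in each comparison with limma (0, 0 and 1 at the unadjusted p). Kcnq1ot1, the noncoding RNA of that imprinted domain, differed by -1.43 ± 0.963 in Tbx18VP16 against control (limma adjusted p = 0.422). It was -0.77 without control 1 and -2.22 without control 3.

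The 18 proliferation genes, such as Pcna and Aurka, had 0 calls in each comparison with limma (0, 1 and 1 at the unadjusted p). Their median differences were -0.05 in null against control, -0.04 in Tbx18VP16 against control and 0.03 in Tbx18VP16 against null.

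**Figure D4:**
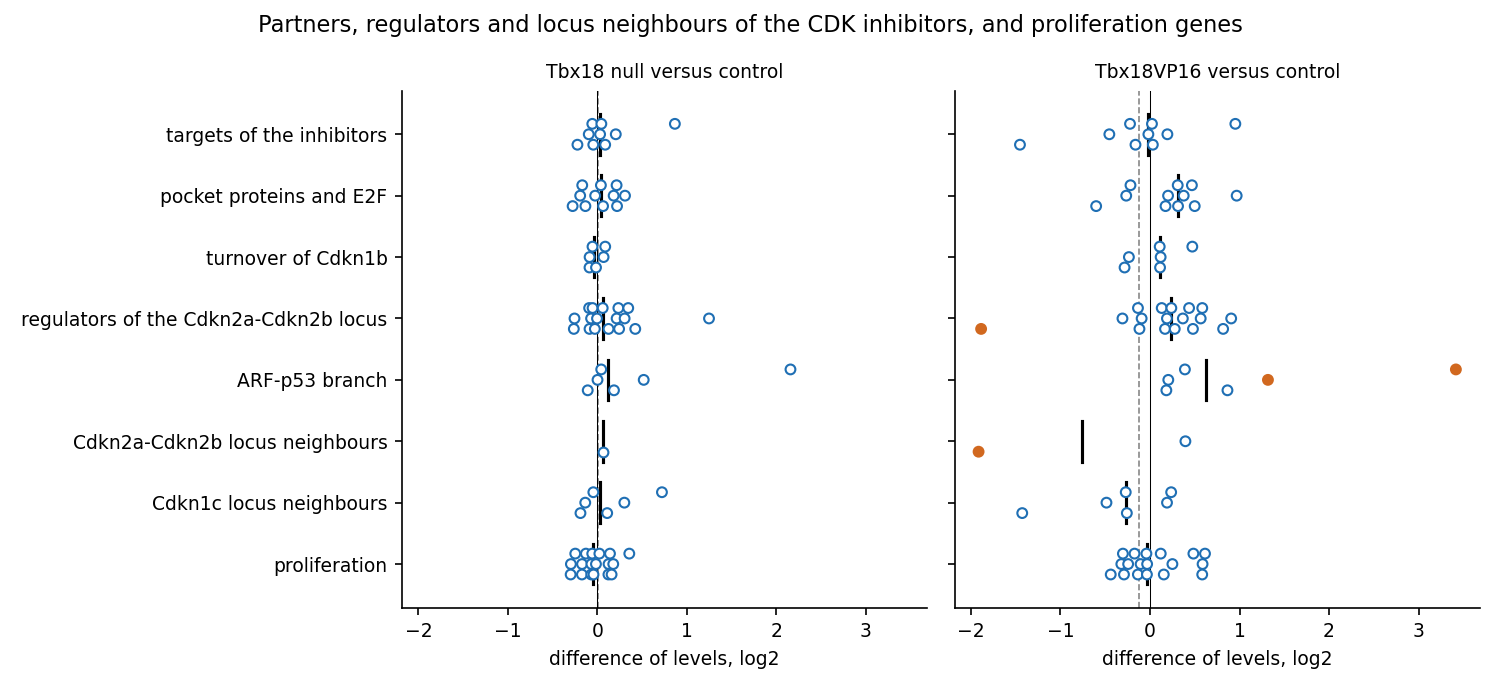
Difference of mean levels (log2) of the tested genes of 8 lists in null against control (left) and Tbx18VP16 against control (right). Each point is a gene, filled where its limma adjusted p was under 0.05, short bars are list medians and the dashed line is the median of all genes. No point is filled in null, and Cbx7, Dmrta1, Ccng1 and Cdkn1a are filled in Tbx18VP16. Dmrta1 has only a bound on that side, so its fill is not read as a call. Both comparisons share the control arrays.

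Markers of other cells moved with some of these groups. The summed level of 9 nephron progenitor markers (signal over the 75th percentile, added) was 29.3 to 44.3 in controls, 50.1 to 64.5 in nulls and 59.2 to 62.8 in Tbx18VP16. Both groups with higher Cdkn2b thus also stood above control for this sum. Against control, 8 of the 9 were higher and 1 lower in each group, with medians of 1.60 in null and 0.59 in Tbx18VP16, beside 0.00 and -0.13 for all genes. The markers moved unevenly in Tbx18VP16, with Meox1 at 3.89 and Wt1 at 2.61, but Six2 at 0.59, Eya1 at 0.19 and Sall1 at -0.63. The part of this list in the Cdkn2b values was not tested. The 4 megakaryocyte and platelet markers summed to 0.0251 to 0.0645 in controls and to 4.21 to 8.35 in Tbx18VP16. Gp9 and Ppbp were not well above background on any control array and have only a bound there. All 4 markers were well above background on both Tbx18VP16 arrays. Their part in the Tbx18VP16 result was not tested. In nulls 1 to 3 they summed to 0.0369, 0.43 and 1.52, the first inside the control range and the others above it, while Cdkn2b stood at -3.76, -3.91 and -5.15. The 8 erythroid markers summed to 5.47, 25.7 and 540 in nulls 1 to 3, against 6.38 to 30.1 in controls and 2.90 to 8.13 in Tbx18VP16. The 8 endothelial markers summed to 2.36, 2.67 and 10.0 in nulls 1 to 3, 1.51 to 2.45 in controls and 0.907 to 0.983 in Tbx18VP16, and the 11 ureteric epithelium markers to 3.40, 6.25 and 13.9 in nulls 1 to 3, 2.6 to 4.11 in controls and 4.37 to 5.15 in Tbx18VP16. Nulls 2 and 3 thus exceeded every control for the last 2 lists, and null 3, where these lists were highest, had the lowest Cdkn2b level of the nulls. Leukocyte markers (6) summed to 1.10 to 1.42 in controls, 1.44 to 2.34 in nulls and 1.11 to 1.53 in Tbx18VP16, with Ptprc not well above background on any control or Tbx18VP16 array. The 7 neural crest and neuron markers summed to 1.17 to 1.57 in controls, 1.58 to 1.76 in nulls and 0.999 to 1.18 in Tbx18VP16. The 5 renal stroma markers summed to 17 to 21.6, 14.1 to 17 and 23.6 to 29.7, but did not move together. In Tbx18VP16 against control Dcn and Lum differed by -3.56 and -5.28, and Foxd1, Ntn1 and Smoc2 by 0.97, 3.30 and 2.02. The part of these lists in the null values was not tested.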

How the data were processed

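Each scanner file holds spot intensity that Agilent Feature Extraction 10.7.3.1 had corrected for background, per the file headers. The authors' deposited value table holds intensity with identical sorted values in all 8 columns and a lowest value of 10, and was an alternative. Spots flagged as outliers (1.86% to 2.55% per array) were left out, each probe was given the mean signal of its remaining spots, and its log2 was set against that of the array's 75th percentile over the 39429 probes common to both designs. That percentile was a signal of 976 to 2129. No spot was saturated. A probe counted as well above background where at least 50% of its spots did.

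The null comparison with control used limma 3.58.1 (R 4.3.3) on 6 arrays, over probes well above background on at least 3. Tbx18VP16 was compared with both in a 3-group fit of 8 arrays, over probes well above background on at least 2. The brightest such probe stood for a gene. P-values were adjusted by the Benjamini-Hochberg method across the full set of genes tested, tests are two-sided and the threshold was 0.05. Replicates are pools of sorted cells, and the labels do not say that they came from separate litters, so p-values measure only the spread between these pools. Replicate numbers paired control and null pools, as deviations from group means correlated at 0.824, 0.712 and 0.431 for equal numbers and -0.749 to 0.315 otherwise. The fits were tested on simulated data.

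The members, lists and tests were chosen with earlier results of these data known. The text names all members, Tbx18 and Cdkn1a, up to 4 genes of smallest p per list and comparison, and up to 3 genes of most similar course per member. Alternatives covered scaling, background, filter, fit, probe, slide, replicate block and leaving out each array. Positions are those of the files (mm9), and promoter windows are from RefSeq (GRCm38.p6).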

Additional observations from a re-analysis of the deposited data

How the results depend on the processing

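Cdkn2b was higher in null and in Tbx18VP16 than in control under every alternative run, at 1.04 to 4.25 and 1.32 to 5.08 on the log2 scale. These calls of Cdkn2b support nothing, since its levels chose the genes. Members called in Tbx18VP16 against control fell to 0 with normexp. In null against control, members called were 1, Cdkn2b, with the replicate block, with the slide block, in the 3-group fit of all 8 arrays and with the filter on every array of 1 group, and 0 whichever array was left out. Genes called there were 202 with the replicate block, 74 in the 3-group fit, 16 with the group filter, 6 with the slide block, 4 with normexp and 1 with no filter, and 0 to 19 when arrays were left out, with 19 without null 1. In Tbx18VP16 against control, genes called were 616 with normexp, 3201 with a replicate block (2 members, Cdkn2b and Cdkn2c) and 56 to 813 when arrays were left out, the low values being 82 and 56 without Tbx18VP16 1 or 2 and 280 without control 2. Members called stayed at 1 when arrays were left out. In Tbx18VP16 against null, genes called were 370 with normexp, 361 with only those groups, 2851 with a replicate block (1 member, Cdkn2c) and 10 to 584 when arrays were left out, with 27 and 10 without Tbx18VP16 1 or 2, 148 without null 2 and 400 without null 3. Members called were 0 in these, except with the block. Replicate numbers did not pair the Tbx18VP16 pools (correlations of -0.252 to 0.0622 for equal numbers), so that block rests on a number alone.

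Directions of differences that did not pass turned as follows, and the cause was not tested. For null against control, Cdkn2c was 0.035 with normexp and -0.67 to 0.49 when arrays were left out, positive without null 1, control 2 or control 3. Cdkn1b was -0.21 within slide 1, -0.43 with its other probe and -0.17 to 0.61 when arrays were left out, negative without null 2, null 3 or control 1. Cdkn1c was 0.033 within slide 1 and -0.42 to 0.25 when arrays were left out, positive without null 3 or control 1. For Tbx18VP16 against control, Cdkn2d was 0.37 with the all-spots percentile, 0.027 with quantile normalisation, 0.092 with the authors' values and -0.26 to 0.074 when arrays were left out, positive without Tbx18VP16 1 or control 1. For Tbx18VP16 against null, Cdkn1b was -0.12 to 0.66 when arrays were left out, negative without null 1. For null against control, Mtap was -0.046 within slide 1 and -0.013 to 0.14 when arrays were left out, negative without control 3, and Ccnd1 was 0.068 within slide 1. Slide 2 held 1 array per group and gave a difference without a test. Signals near background limit Cdkn2a, Cdkn2c and the control side of Cdkn2b.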
